A study of Mus musculus with 6 samples.

Results

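The genes that encode myosin, kinesin and dynein motors were examined by RNA-seq read counts in Melb-a, a mouse melanoblast line that came from C57BL/6J skin and is immortal. A gene was taken when its symbol belongs to the unconventional myosins (Myo), the kinesins and their light chains (Kif, Kifc, Klc), the cytoplasmic dynein chains (Dync, Dynl) or dynactin (Dctn). Of 35275 gene IDs in the table, 95 met this rule. They comprised 82 genes counted as transport motors and their subunits and 13 mitotic kinesins, which are described apart. Among the 82 are 3 that match by symbol but were placed in no motor role, Kif1bp, Kif16bos and Dynlt1-ps1. There were 3 independent samples with iBRD9, a ligand of the bromodomain of the SWI/SNF subunit BRD9, at 10 µM, and 3 with the vehicle DMSO. Both groups were kept for 48 h in DMEM with 10% serum, 2 nM NDP-α-MSH, an agonist of the melanocortin receptor, and 200 nM of the phorbol ester PMA, so the cells of both groups were in differentiation medium. A single line, compound and dose were used, and in bulk RNA fewer cells of a type and less RNA per cell cannot be told apart.

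Motor proteins turn ATP hydrolysis into movement along the cytoskeleton. Myosins run on actin filaments, most kinesins run toward the plus ends of microtubules, and cytoplasmic dynein, helped by its cofactor dynactin, runs toward their minus ends. In melanocytes, melanosomes move along microtubules in both directions and are then held at the periphery by myosin Va, which binds the melanosome through the small GTPase Rab27a and its effector melanophilin (Mlph). Mice without one of these proteins have diluted coats because melanosomes cluster around the nucleus. The mitotic kinesins do other work: they build the spindle, align chromosomes and complete cytokinesis.

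The iBRD9 libraries held 29680952, 24134176 and 22846391 counts and the DMSO libraries 23248475, 26675006 and 24986925. Melanocyte markers were abundant, with a summed level of 14732 to 16227 CPM (read counts relative to the TMM-scaled library size) with iBRD9 and 15315 to 17573 with DMSO. Of these 7 genes, 1 rose and 4 fell, and Dct and Tyrp1 led the sum. Dct rose, with 7525 ± 449 CPM with iBRD9 and 6074 ± 394 with DMSO. Tyr fell most, with 87.8 ± 3.72 CPM with iBRD9 and 537 ± 14.5 with DMSO. Sox10 averaged 390 ± 4.08 CPM with iBRD9 and 739 ± 104 with DMSO. Tyrp1 averaged 3517 ± 186 CPM with iBRD9 and 5576 ± 408 with DMSO, and Mlana 291 ± 12.9 with iBRD9 and 448 ± 8.34 with DMSO. The 5 keratinocyte markers summed to 3.60 to 4.35 CPM with iBRD9 and 3.50 to 4.21 CPM with DMSO, nearly all of it Krt10, and Krt5 and Krt1 were at 0 in every library. The 4 immune markers summed to 5.45 to 6.202 CPM with iBRD9 and 6.12 to 7.77 CPM with DMSO. Of these, Ptprc and Cd3e were at 0 in every library, Csf1r rose (1.71 ± 0.187 CPM with iBRD9 and 0.279 ± 0.154 CPM with DMSO, adjusted p = 0.000392) and Cd68 fell (4.19 ± 0.389 CPM with iBRD9 and 6.78 ± 0.962 CPM with DMSO, adjusted p = 0.00399). Csf1r had enough counts for a test only through its iBRD9 libraries, so the count limit selected it for a high level with iBRD9. The 5 fibroblast markers summed to 131 to 145 CPM with iBRD9 and 75.2 to 99.7 CPM with DMSO, led by Dcn, with 2 higher and 1 lower. The 3 endothelial markers summed to 3.96 to 5.78 CPM with iBRD9 and 1.09 to 1.48 CPM with DMSO. The part of these in the motor results was not tested. DMSO replicate 1 stood apart from its group: among the 8262 genes called between treatments, it was the DMSO library nearest to iBRD9 in 5819 (70.4%). The same held for 34 of 43 called transport motor genes and 9 of 9 called mitotic kinesins. For motor genes, values without it are therefore given where they change a call.

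Motor transcripts took a larger share of all counts with iBRD9, 1.07% ± 0.0112, against 0.879% ± 0.0170 with DMSO (SD, n = 3, as for every mean given here). Myo5a alone took 0.210% ± 0.0124 of counts with iBRD9 and 0.0954% ± 0.0021 with DMSO. The other transport motor genes together held 0.730% ± 0.0065 of counts with iBRD9 and 0.692% ± 0.0243 with DMSO. The mitotic kinesins held 0.132% ± 0.0078 with iBRD9 and 0.0919% ± 0.0096 with DMSO. Most of the difference in share therefore lay in Myo5a.

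Enough counts for a test were found for 77 of the 95 genes, 65 transport and 12 mitotic. Here a gene is said to rise or fall when edgeR's quasi-likelihood test gave an adjusted p under 0.05 over all 13602 tested genes. By that rule 52 motor genes changed, 36 higher and 16 lower with iBRD9. Those are 67.5% of the motor genes tested, beside 60.7% of all tested genes. By direction they are 46.8% higher and 20.8% lower, against 29.8% and 30.9% of all genes. Transport motor genes split into 27 higher, 16 lower and 22 that did not pass, with a median log2 fold change (iBRD9 over DMSO, called log2 change from here on) of 0.12. Mitotic kinesins split into 9 higher, 0 lower and 3 that did not pass, with a median of 0.38, beside 0.01 over all tested genes. Changes of at least 2-fold that passed were found in 10 motor genes that rose and 3 that fell, and in 9.41% and 5.46% of all genes. Of those that rose, Myo1a, Myo1g, Myo15b and Kif17 had enough counts for a test only through their iBRD9 libraries. For them the count limit itself selected for a high level with iBRD9. The groups of libraries did not overlap for 56 motor genes, 39 higher and 17 lower, where 68.0% of all genes did not overlap. Without DMSO replicate 1, 67 of 79 tested motor genes passed, 46 higher and 21 lower, beside 74.0% of all genes, and the median of the transport motor genes was 0.22.

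**Figure D1:**
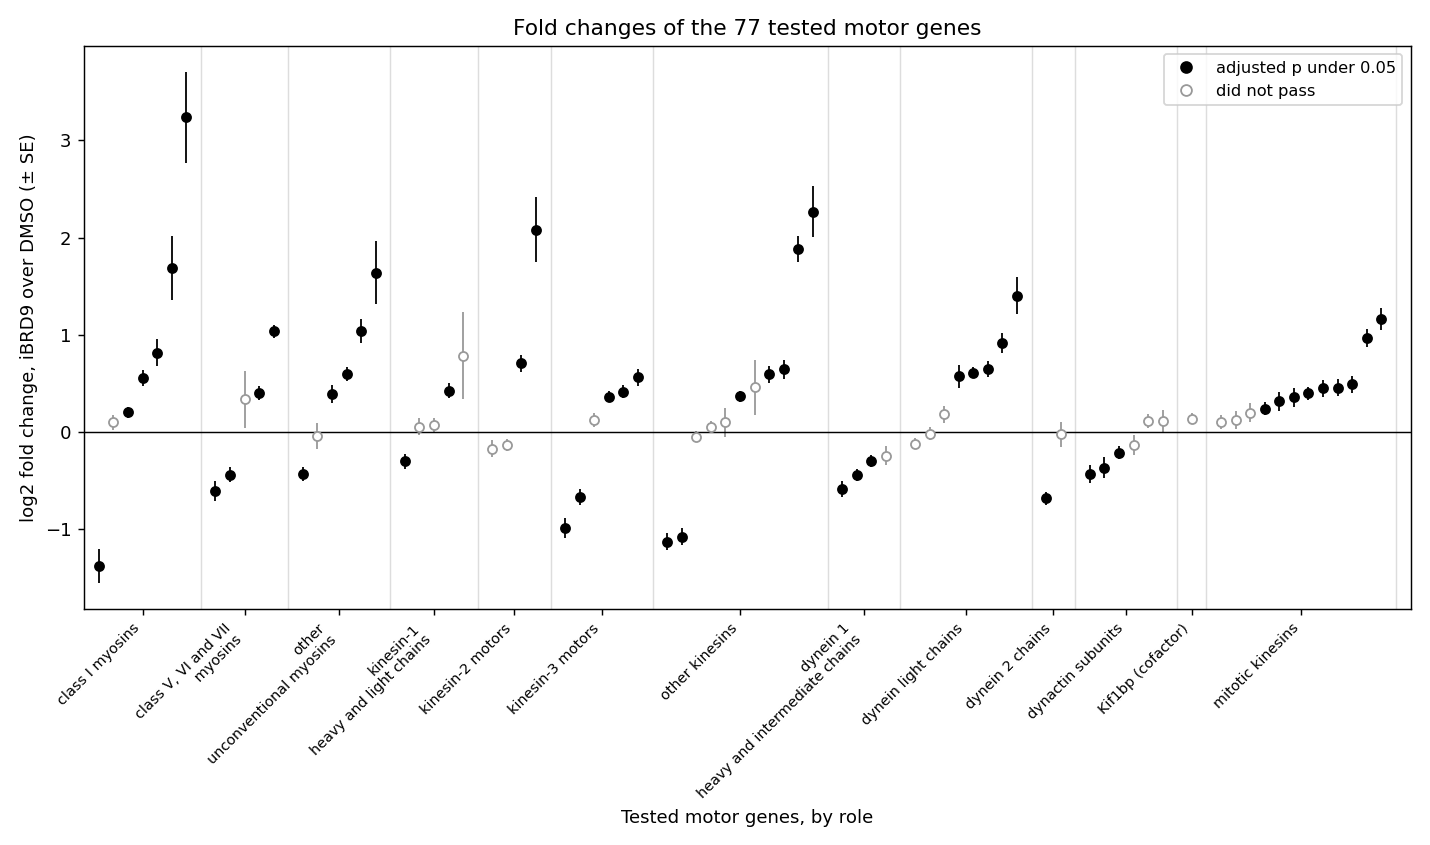
Log2 fold change of each tested motor gene (iBRD9 over DMSO, y axis) with its standard error as a bar, grouped by role along the x axis; filled points passed the test at an adjusted p under 0.05. All 12 tested mitotic kinesins lie above 0 and 9 of them passed, and the 4 tested heavy, intermediate and light intermediate chains of dynein 1 lie below 0.

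Among myosins, 11 of 18 tested genes rose, 4 fell and 3 did not pass, 83.3% called beside 60.7% of all tested genes. Myo5a, the heavy chain of myosin Va that carries melanosomes on actin, was the most abundant myosin, also per kilobase of exon. Myo5a (ENSMUSG00000034593) had 2167, 1957 and 1968 CPM with iBRD9, against 939, 1011 and 1022 CPM with DMSO. Every iBRD9 library was well above every DMSO library, and the log2 change was 1.04 (SE 0.069, adjusted p = 1.38e-05). The DMSO libraries lay close together here, with replicate 1 the lowest. Per kilobase of exon, Myo5a averaged 137 CPM with iBRD9 and 66.9 CPM with DMSO, which placed it behind Dynll2 among motor genes with iBRD9 and behind Dynll2, Dync1h1 and Kifc3 with DMSO. Counts of Myo5a made up 99.6% of the counts of the 3 class V genes with iBRD9 and 98.8% with DMSO. Its relative Myo5b, which moves recycling endosomes, fell. The level of Myo5b (ENSMUSG00000025885) was 7.60, 6.92 and 7.05 CPM with iBRD9 and 10.2, 11.5 and 11.2 CPM with DMSO. The groups did not overlap, and the log2 change was -0.61 (SE 0.102, adjusted p = 0.00119). Myo5c was near 1 CPM or below in every library and had a log2 change of 0.34 (adjusted p = 0.345).

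Other motors with a known place in pigmented or sensory cells moved in both directions. Myo7a, which acts on melanosomes of the retinal pigment epithelium and in hair cells, fell. For Myo7a (ENSMUSG00000030761) the values were 421, 381 and 377 CPM with iBRD9, against 489, 544 and 568 CPM with DMSO. The highest iBRD9 library was below the lowest DMSO library, and the log2 change was -0.44 (SE 0.075, adjusted p = 0.00125). Myo6, which unlike other myosins walks toward the minus end of actin filaments, rose. Myo6 (ENSMUSG00000033577) had 124, 122 and 120.3 CPM with iBRD9, against 84.8, 94.5 and 98.4 CPM with DMSO. Its iBRD9 libraries were within a few CPM of each other, and the log2 change was 0.40 (SE 0.067, adjusted p = 0.00115).

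Myo10, which moves to the tips of filopodia, rose about as much as Myo5a. The level of Myo10 (ENSMUSG00000022272) was 459, 463 and 483 CPM with iBRD9 and 279.5, 207 and 196 CPM with DMSO. Among the DMSO libraries, replicate 1 was the highest and nearest to iBRD9, and the log2 change was 1.04 (SE 0.123, adjusted p = 0.000203). The myosins Myo9b and Myo9a rose too. For Myo9b (ENSMUSG00000004677) the values were 167, 167 and 177 CPM with iBRD9, against 122, 111 and 105 CPM with DMSO. The groups stood apart, and the log2 change was 0.60 (SE 0.069, adjusted p = 0.000179). Myo9a (ENSMUSG00000039585) had 77.9, 78.1 and 75.4 CPM with iBRD9, against 50.5, 61.2 and 64.9 CPM with DMSO. DMSO replicate 1 was the lowest of all for Myo9a, whose log2 change was 0.39 (adjusted p = 0.00637). Myo18a, a myosin with little motor activity that binds the Golgi, fell. The level of Myo18a (ENSMUSG00000000631) was 106, 98.5 and 96.8 CPM with iBRD9 and 123, 142 and 142 CPM with DMSO. The groups did not overlap, and the log2 change was -0.43 (SE 0.075, adjusted p = 0.00130). The mitochondrial myosin Myo19 had a log2 change of -0.05 (adjusted p = 0.783), with DMSO replicate 1 above all other libraries. Without that library it was 0.13, and with library size alone 0.056.

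Class I myosins are single-headed motors that link membranes to actin. Of 7 tested, 5 rose, 1 fell and 1 did not pass, 85.7% called beside 60.7% of all tested genes. For Myo1d (ENSMUSG00000035441) the values were 94.8, 90.2 and 89.2 CPM with iBRD9, against 38.9, 57.1 and 59.7 CPM with DMSO. DMSO replicate 1 was the lowest library for Myo1d, and the log2 change was 0.82 (SE 0.142, adjusted p = 0.00140). Myo1c (ENSMUSG00000017774) had 222, 241 and 233 CPM with iBRD9, against 208, 199.7 and 197 CPM with DMSO. The groups were close but did not overlap for Myo1c, and the log2 change was 0.20 (SE 0.056, adjusted p = 0.0137). Its adjusted p was 0.0745 without iBRD9 replicate 2, 0.0578 without iBRD9 replicate 3, 0.0642 without DMSO replicate 2 and 0.0563 without DMSO replicate 3. Myo1e had a log2 change of 0.10 (adjusted p = 0.280), and of 0.13 (adjusted p = 0.0480) without DMSO replicate 1. The one that fell was Myo1h. The level of Myo1h (ENSMUSG00000066952) was 2.99, 2.44 and 1.86 CPM with iBRD9 and 6.34, 6.35 and 6.45 CPM with DMSO. The level was low throughout, and the log2 change was -1.38 (SE 0.175, adjusted p = 0.000285). About 25.8% of the exon bases of Myo1h overlap other genes, mostly Kctd10, which averaged 64.9 CPM with iBRD9 and 65.5 CPM with DMSO, so its own level is uncertain.

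Rises of at least 2-fold were also seen in myosins near the limit of detection. Myo1g, a class I myosin of leukocytes, had 39, 21 and 37 counts with iBRD9 and 4, 1 and 4 counts with DMSO. Its fitted log2 change of 3.24 (SE 0.470, adjusted p = 0.000557) was the largest of all tested motor genes and rests on these few counts. Of the immune markers, Csf1r also rose, but like Myo1g it had enough counts for a test only through its iBRD9 libraries. Cd68 fell, and Ptprc and Cd3e were at 0. The part of the immune markers in this result was not tested. Myo1a averaged 1.58 ± 0.173 CPM with iBRD9 and 0.491 ± 0.251 CPM with DMSO and Myo15b 0.750 ± 0.119 CPM with iBRD9 and 0.236 ± 0.0249 CPM with DMSO, with log2 changes of 1.69 and 1.64 (adjusted p = 0.00256 and 0.00248).

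**Figure D2:**
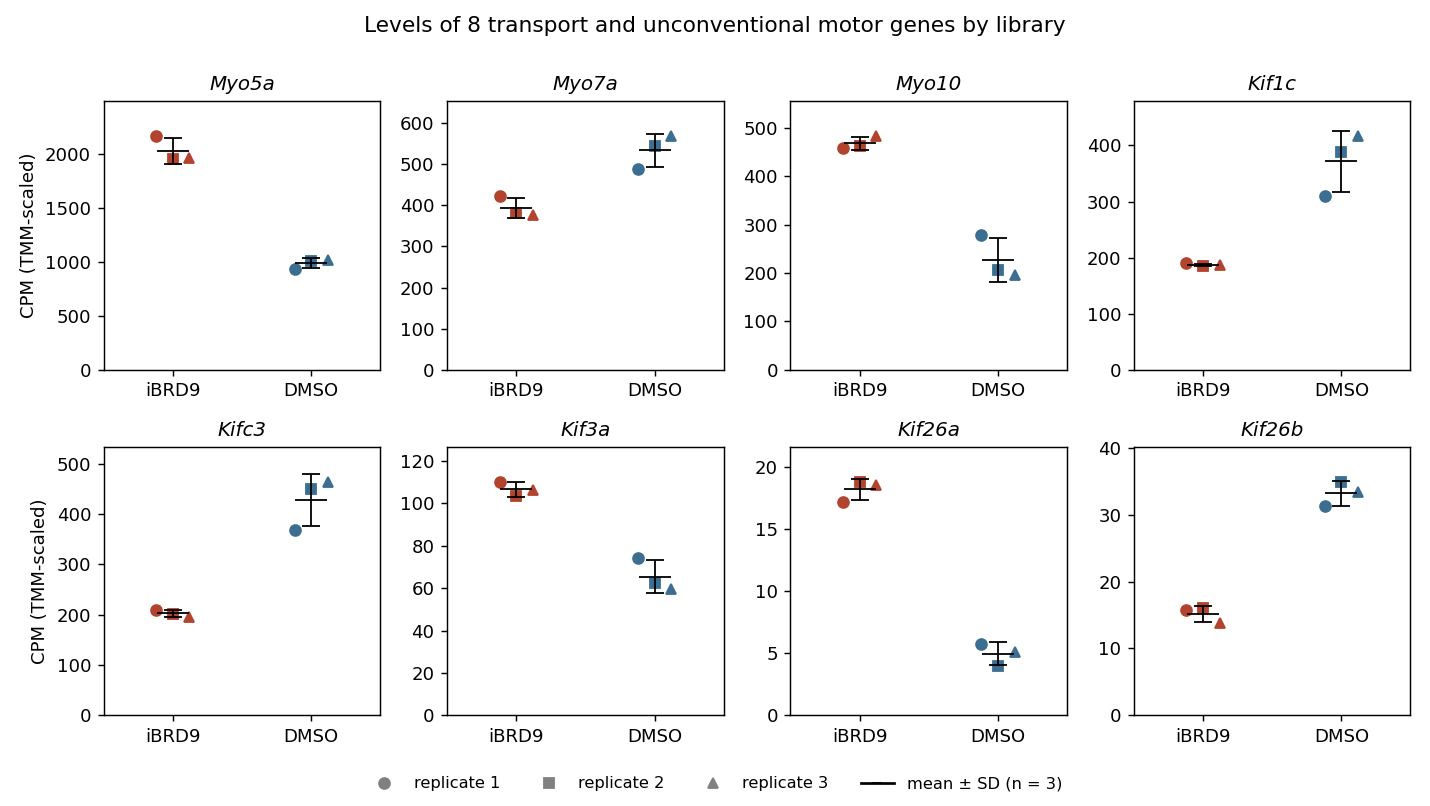
CPM in each library (points; lines mark the group mean ± SD, n = 3) for named myosin and transport kinesin genes, iBRD9 left of DMSO in each panel. For Myo5a the iBRD9 libraries sit between 1957 and 2167 CPM, above all DMSO libraries at 939 to 1022 CPM, and for Kif1c, Kifc3 and Myo7a the iBRD9 libraries sit below.

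Of 26 transport kinesins tested, 11 rose, 5 fell and 10 did not pass, 61.5% called beside 60.7% of all tested genes. Kinesin-1, the motor that carries melanosomes and many other organelles outward, is a pair of heavy chains with light chains. The heavy chain Kif5b did not pass the test. For Kif5b (ENSMUSG00000006740) the values were 349, 359.8 and 364 CPM with iBRD9, against 308, 353 and 359 CPM with DMSO. The groups overlapped for Kif5b, DMSO replicate 1 was the lowest library, and the log2 change was 0.07 (SE 0.069, adjusted p = 0.386). It was -0.0018 without DMSO replicate 1 and 0.18 (adjusted p = 0.0250) with library size alone. The light chains, which hold the cargo, moved apart. Klc1 (ENSMUSG00000021288) had 168, 162 and 159.9 CPM with iBRD9, against 137, 115 and 112 CPM with DMSO. Klc1 was higher in every iBRD9 library, and the log2 change was 0.43 (SE 0.082, adjusted p = 0.00224). The level of Klc4 (ENSMUSG00000003546) was 17.5, 18.2 and 17.8 CPM with iBRD9 and 20.4, 23.4 and 22.3 CPM with DMSO. Klc4 fell, and the log2 change was -0.30 (SE 0.081, adjusted p = 0.0113). Its adjusted p was 0.0520 without DMSO replicate 2, and its log2 change was -0.20 (adjusted p = 0.0504) with library size alone as the scale. Klc2 had a log2 change of 0.06 (adjusted p = 0.605). The neuronal heavy chain Kif5a stayed under 1 CPM, with a log2 change of 0.79 (adjusted p = 0.156) and of 1.22 (adjusted p = 0.0300) without DMSO replicate 1. In both fits Kif5a had enough counts for a test only through its iBRD9 libraries. The count limit itself thus selected for a high level with iBRD9.

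In kinesin-2, which pairs Kif3a with Kif3b or Kif3c and serves cilia and organelle transport, Kif3a rose while Kif3b and Kif3c did not pass. For Kif3a (ENSMUSG00000018395) the values were 110.3, 103 and 106 CPM with iBRD9, against 74.2, 62.4 and 59.6 CPM with DMSO. The groups were well separated, and the log2 change was 0.71 (SE 0.086, adjusted p = 0.000235). Kif3b averaged 81.3 ± 2.22 CPM with iBRD9 and 89.3 ± 5.09 CPM with DMSO, with a log2 change of -0.14 (adjusted p = 0.0953) and of -0.19 (adjusted p = 0.000740) without DMSO replicate 1. Kif3c averaged 29.6 ± 2.01 CPM with iBRD9 and 33.3 ± 2.93 CPM with DMSO, with a log2 change of -0.17 (adjusted p = 0.12) and of -0.25 (adjusted p = 0.0434) without DMSO replicate 3. For Kif3c, 40.7% of exon bases overlap another gene. Kifap3, the cargo-binding subunit of the complex, had a log2 change of 0.40 (adjusted p = 0.00110). The homodimeric Kif17 was at 1.04 to 1.88 CPM with iBRD9 and 0.276 to 0.391 CPM with DMSO, a log2 change of 2.08 (adjusted p = 0.000974). That value lies near the limit of detection and rests on 58, 26 and 31 counts with iBRD9 and 9, 7 and 8 with DMSO.

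Kinesin-3 motors carry vesicles and endosomes over long distances. Of 6 tested, 3 rose, 2 fell and 1 did not pass, 83.3% called beside 60.7% of all tested genes. The strongest fall was that of Kif1c. Kif1c (ENSMUSG00000020821) had 189.8, 186 and 186 CPM with iBRD9, against 311, 388 and 417 CPM with DMSO. The iBRD9 libraries were close to each other and far below all DMSO libraries, and the log2 change was -0.99 (SE 0.101, adjusted p = 9.09e-05). Kif16b, a motor of early endosomes, also fell. The level of Kif16b (ENSMUSG00000038844) was 28.9, 27.9 and 28.9 CPM with iBRD9 and 40.2, 47.4 and 48.8 CPM with DMSO. Again the groups did not overlap, and the log2 change was -0.67 (SE 0.084, adjusted p = 0.000270). The synaptic vesicle precursor motors Kif1a and Kif1b rose. For Kif1a (ENSMUSG00000014602) the values were 31.9, 37.6 and 38.3 CPM with iBRD9, against 23.7, 24.1 and 25.0 CPM with DMSO. Kif1b (ENSMUSG00000063077) had 209.8, 193 and 200.1 CPM with iBRD9, against 153, 159 and 157 CPM with DMSO. Both were higher in every iBRD9 library, with log2 changes of 0.56 and 0.36 (adjusted p = 0.000719 and 0.000692). The level of Kif13b (ENSMUSG00000060012) was 47.4, 47.4 and 51.8 CPM with iBRD9 and 34.9, 36.2 and 38.7 CPM with DMSO. Kif13b was also higher in every iBRD9 library, with a log2 change of 0.42 (adjusted p = 0.00120). Kif13a, which brings recycling endosomes to melanosomes in human melanocytic cells, averaged 81.0 ± 2.4 CPM with iBRD9 and 74.3 ± 6.29 CPM with DMSO. Its log2 change was 0.12 (adjusted p = 0.169), and 0.19 (adjusted p = 0.00157) without DMSO replicate 1.

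The remaining transport kinesins held the largest log2 changes of the kinesins in both directions. Of 11 tested, 5 rose, 2 fell and 4 did not pass, 63.6% called beside 60.7% of all tested genes. Kifc3, a motor that runs toward microtubule minus ends, fell. For Kifc3 (ENSMUSG00000031788) the values were 210.0, 202 and 196 CPM with iBRD9, against 369, 449 and 465 CPM with DMSO. The highest iBRD9 library was far below the lowest DMSO library, and the log2 change was -1.08 (SE 0.089, adjusted p = 3.42e-05). Of its exon bases, 27.5% overlap other genes, so part of its level is uncertain. Kif26b and Kif26a are related kinesins that lack motor activity, and they moved in opposite directions. Kif26b (ENSMUSG00000026494) had 15.7, 16.0 and 13.8 CPM with iBRD9, against 31.3, 34.9 and 33.4 CPM with DMSO. The level of Kif26a (ENSMUSG00000021294) was 17.2, 18.9 and 18.6 CPM with iBRD9 and 5.77, 3.94 and 5.14 CPM with DMSO. Kif26b fell by 1.13 on the log2 scale (SE 0.087, adjusted p = 2.54e-05), whereas Kif26a had a log2 change of 1.88 (SE 0.138, adjusted p = 1.95e-05).

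Kifc2, a minus-end motor of dendrites, was the transport kinesin with the largest rise. For Kifc2 (ENSMUSG00000004187) the values were 13.6, 11.9 and 11.8 CPM with iBRD9, against 3.78, 2.56 and 1.43 CPM with DMSO. Even the highest DMSO library, replicate 1, was far below iBRD9, and the log2 change was 2.27 (SE 0.260, adjusted p = 0.000170). Kif7, a regulator of Hedgehog signalling in cilia, rose. Kif7 (ENSMUSG00000050382) had 25.7, 24.1 and 22.4 CPM with iBRD9, against 16.9, 15.4 and 13.9 CPM with DMSO. The groups did not overlap, and the log2 change was 0.65 (SE 0.098, adjusted p = 0.000702). Of its exon bases, 20.3% overlap another gene. Kif24, which acts at centrioles, had 33.4 ± 1.72 CPM with iBRD9 and 22.2 ± 2.05 CPM with DMSO, and the log2 change was 0.59 (SE 0.087, adjusted p = 0.000586). Kif21b, which controls microtubule growth, had a log2 change of 0.37 (adjusted p = 0.000921). Its relative Kif21a had one of -0.05 (adjusted p = 0.472), and the microtubule depolymerase Kif2a one of 0.05 (adjusted p = 0.470). Kif19a and Kif9 had 0.10 and 0.46 (adjusted p = 0.582 and 0.186).

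Dynein and dynactin genes divided by subunit. Of 20 tested, 5 rose, 7 fell and 8 did not pass, with a median log2 change of -0.07. The called share was 60.0%, beside 60.7% of all tested genes. The balance depended on the scale and on DMSO replicate 1: library size alone, which moved the median of all genes by 0.106, gave 7 higher and 6 lower with a median of 0.03, and leaving out DMSO replicate 1 gave 7 higher and 11 lower with a median of -0.16. With all libraries and the main scale, all 5 that rose were light chains, and all 7 that fell were larger dynein chains or dynactin subunits. The light chains that rose are Dynll2 and 4 near copies of Dynlt1. With the copies summed to 1 row, that row and 1 of the other 16 tested genes rose and 7 fell, and the median of those 16 was -0.17. Dync1h1, the motor subunit of cytoplasmic dynein 1, averaged 75.8 CPM per kilobase of exon with iBRD9 and 89.7 with DMSO, where Dynll2 alone was higher. The level of Dync1h1 (ENSMUSG00000018707) was 1236, 1152 and 1174 CPM with iBRD9 and 1187, 1517 and 1509 CPM with DMSO. The groups overlapped through DMSO replicate 1, and the log2 change was -0.24 (SE 0.098, adjusted p = 0.0597). Without DMSO replicate 1 its log2 change was -0.36 (adjusted p = 2.58e-07), and the DESeq2 Wald test gave an adjusted p of 0.0441.

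The intermediate and light intermediate chains, which join the heavy chain to dynactin and to cargo adaptors, fell together. For Dync1li1 (ENSMUSG00000032435) the values were 131, 137 and 135 CPM with iBRD9, against 175, 212 and 219 CPM with DMSO. No iBRD9 library reached the DMSO range, and the log2 change was -0.59 (SE 0.086, adjusted p = 0.000576). Dync1i2 (ENSMUSG00000027012) had 68.8, 71.3 and 69.3 CPM with iBRD9, against 88.9, 95.5 and 99.5 CPM with DMSO. The libraries of each group lay close together, and the log2 change was -0.44 (SE 0.063, adjusted p = 0.000515). The level of Dync1li2 (ENSMUSG00000035770) was 202, 196 and 194 CPM with iBRD9 and 225, 247 and 256 CPM with DMSO. Dync1li2 fell less, and the log2 change was -0.30 (SE 0.063, adjusted p = 0.00356). For dynein 2, the motor that returns cargo within cilia, the heavy chain Dync2h1 fell. For Dync2h1 (ENSMUSG00000047193) the values were 32.7, 29.3 and 31.9 CPM with iBRD9, against 49.1, 52.4 and 49.2 CPM with DMSO. The groups did not overlap, and the log2 change was -0.68 (SE 0.069, adjusted p = 8.97e-05). The dynein 2 light intermediate chain Dync2li1 averaged 25.2 ± 1.26 CPM with iBRD9 and 25.6 ± 4.66 CPM with DMSO, with a log2 change of -0.02 (adjusted p = 0.879) and of -0.18 (adjusted p = 0.0266) without DMSO replicate 1.

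Of 6 dynactin subunits tested, 0 rose, 3 fell and 3 did not pass. Dctn1 encodes p150, which binds microtubules and dynein and in mouse melanocytes takes part in inward movement of melanosomes. Dctn1 (ENSMUSG00000031865) had 300.3, 299.6 and 313 CPM with iBRD9, against 251, 293 and 299 CPM with DMSO. DMSO replicate 1 was again the lowest, and the log2 change was 0.11 (SE 0.074, adjusted p = 0.216). With library size alone it was 0.22 (adjusted p = 0.0151). The level of Dctn4 (ENSMUSG00000024603) was 68.9, 74.2 and 71.4 CPM with iBRD9 and 82.8, 103 and 103 CPM with DMSO. Dctn4, of the pointed end of the dynactin filament, fell, and the log2 change was -0.43 (SE 0.091, adjusted p = 0.00378). For Dctn2 (ENSMUSG00000025410) the values were 136, 132 and 135 CPM with iBRD9, against 142, 182 and 196 CPM with DMSO. Dctn2, or dynamitin, of the dynactin shoulder, fell, and the log2 change was -0.37 (SE 0.107, adjusted p = 0.0167). Dctn2 lost its call when any of 4 libraries was left out, with an adjusted p of 0.0550 without iBRD9 replicate 1, 0.0590 without iBRD9 replicate 2, 0.0533 without iBRD9 replicate 3 and 0.0557 without DMSO replicate 2. Dctn5 (ENSMUSG00000030868) had 33.0, 32.5 and 30.1 CPM with iBRD9, against 36.9, 38.6 and 35.3 CPM with DMSO. The Dctn5 groups were close but did not overlap, and the log2 change was -0.21 (SE 0.070, adjusted p = 0.0283). Its adjusted p was 0.0689 without iBRD9 replicate 2, 0.114 without iBRD9 replicate 3 and 0.103 without DMSO replicate 2, and with library size alone its log2 change was -0.11 (adjusted p = 0.224). Dctn3 and Dctn6 had log2 changes of -0.13 and 0.11 (adjusted p = 0.283 and 0.418). Without DMSO replicate 1 these were -0.25 and 0.25 (adjusted p = 0.000121 and 0.00903).

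Among the light chains, Dynll2 and Dynll1 encode LC8 proteins, which are shared between dynein, myosin Va and other complexes. The level of Dynll2 (ENSMUSG00000020483) was 462, 487 and 502 CPM with iBRD9 and 314, 311 and 326 CPM with DMSO. Dynll2 was higher in every iBRD9 library, and the log2 change was 0.61 (SE 0.056, adjusted p = 5.83e-05). Dynll1 had 72.1 ± 4.51 CPM with iBRD9 and 63.5 ± 6.83 CPM with DMSO, with a log2 change of 0.18 (adjusted p = 0.104) and of 0.26 (adjusted p = 0.000148) without DMSO replicate 1. The ratio of Dynll2 to Dynll1 counts was 6.80, 6.83 and 6.53 with iBRD9, against 4.41, 5.14 and 5.55 with DMSO, and the groups did not overlap. Per kilobase of exon Dynll2 had the highest level of all motor genes, 177 CPM with iBRD9 and 116 CPM with DMSO. Dynlrb1, of the roadblock family, had a log2 change of -0.02 (adjusted p = 0.843). Dynlt3, a Tctex-type light chain, had one of -0.12 (adjusted p = 0.0877), and -0.15 (adjusted p = 0.00628) without DMSO replicate 1.

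The Tctex-type genes Dynlt1a, Dynlt1b, Dynlt1c and Dynlt1f are near copies, with at least 98.8% identity over their longest matches, so the split of reads among them is uncertain. Their summed level is the safer quantity. It was 114, 121 and 119.9 CPM with iBRD9, against 74.8, 62.7 and 57.5 CPM with DMSO. Every iBRD9 library was above every DMSO library, and tested as a summed row the log2 change was 0.86 (SE 0.094, adjusted p = 0.000131). The separate rows rose by 0.57 (Dynlt1f) to 1.40 (Dynlt1c) on the log2 scale. For Dynlt1c (ENSMUSG00000000579) the values were 38.5, 36.4 and 37.9 CPM with iBRD9, against 19.7, 12.5 and 10.6 CPM with DMSO. Dynlt1a (ENSMUSG00000092074) had 14.4, 15.2 and 15.1 CPM with iBRD9, against 8.33, 8.32 and 7.04 CPM with DMSO. The level of Dynlt1b (ENSMUSG00000096255) was 38.4, 41.6 and 39.2 CPM with iBRD9 and 27.7, 23.4 and 24.9 CPM with DMSO. In each of these rows the groups did not overlap.

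Of the adaptors and cofactors that couple motors to cargo, 13 of 31 tested rose, 8 fell and 10 did not pass, with a median log2 change of 0.13. The called share was 67.7%, beside 60.7% of all tested genes. On the melanosome side of myosin Va, Rab27a fell. For Rab27a (ENSMUSG00000032202) the values were 154, 146 and 138 CPM with iBRD9, against 336, 437 and 455 CPM with DMSO. The groups were far apart, and the log2 change was -1.49 (SE 0.112, adjusted p = 2.30e-05). Melanophilin (Mlph), which bridges Rab27a and myosin Va, averaged 358 ± 9.76 CPM with iBRD9 and 382 ± 47.2 CPM with DMSO, with a log2 change of -0.09 (adjusted p = 0.381). The dynein adaptor Bicd1 and the kinesin-1 adaptor Plekhm2 (SKIP, which links kinesin-1 to melanosomes in mouse melanocytes) fell. Bicd1 averaged 21.2 ± 2.12 CPM with iBRD9 and 42.3 ± 2.12 CPM with DMSO, a log2 change of -0.998 (adjusted p = 4.60e-05). Plekhm2 averaged 125 ± 3.16 CPM with iBRD9 and 204 ± 18.1 CPM with DMSO, a log2 change of -0.70 (adjusted p = 9.99e-05). The largest rises were in the dynein adaptors Ninl and Nin, of the centrosome, and in Mapk8ip3, which binds kinesin-1 and dynactin. Ninl averaged 46.2 ± 1.78 CPM with iBRD9 and 13.9 ± 4.16 CPM with DMSO, Nin 109 ± 2.11 CPM with iBRD9 and 44.3 ± 8.89 CPM with DMSO and Mapk8ip3 202 ± 12.6 CPM with iBRD9 and 89.4 ± 27.7 CPM with DMSO. Their log2 changes were 1.73, 1.30 and 1.17 (adjusted p = 8.31e-05, 6.67e-05 and 0.000764). Kif1bp, a kinesin-binding protein that is named like a kinesin but is no motor, had a log2 change of 0.14 (adjusted p = 0.0668), and 0.15 (adjusted p = 0.0141) without DMSO replicate 1.

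Tubulins form the tracks of kinesins and dynein. Of 11 tubulin genes tested, 3 rose, 0 fell and 8 did not pass, with a median of 0.27. Thus 27.3% were called, beside 60.7% of all tested genes. For Tuba1a, Tuba1b, Tuba1c and Tubb5, which did not pass, DMSO replicate 1 had 366, 710, 152 and 1184 CPM, within the iBRD9 range. The other DMSO libraries, at 253 and 245, 500 and 415, 113 and 98.1, and 844 and 706 CPM, lay below every iBRD9 library. Tuba4a, Tubb2a, Tubb3 and Tubb4a, which did not pass either, lacked this pattern. The tubulin share without DMSO replicate 1 is not given. Tubb4b averaged 235 ± 22.9 CPM with iBRD9 and 109.5 ± 34.2 CPM with DMSO, a log2 change of 1.10 (adjusted p = 0.00128). Tubb6 and Tubg1 had log2 changes of 0.27 and 0.20 (adjusted p = 0.0361 and 0.0301). Of 10 genes of conventional myosin II and its light chains, 6 rose, 2 fell and 2 did not pass, 80.0% called, with a median of 0.31. Myh9, the main nonmuscle myosin II heavy chain, averaged 1182 ± 40.0 CPM with iBRD9 and 763 ± 6.52 CPM with DMSO, a log2 change of 0.63 (adjusted p = 4.80e-05). The calmodulin gene Calm2, whose product is also a light chain of myosin Va, had a log2 change of 0.62 (adjusted p = 0.000510). Myl6b and Myh14 fell by 0.39 and 0.28 on the log2 scale (adjusted p = 0.0184 and 0.0227).

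The mitotic kinesins are shown first by their promoters, since genes that peak in G2 and mitosis often carry a cell cycle genes homology region (CHR) near the start of transcription. RefSeq promoter windows (GRCm38.p6, 250 bases before to 50 after each start) were found for 71 motor genes, 12 of them mitotic (all but Kif20a). A gene with several starts was counted when any of its windows held the letters. The letters TTTGAA or TTCGAA were searched on both strands. They were present in 10 of 12 mitotic kinesin genes and in 9 of 59 transport motor genes, beside 21.7% of all 27025 genes in the table and 19.2% of its 32851 windows. By change in these data, 7 of 8 mitotic kinesins that rose had the letters, and 2 of 19 transport motor genes that rose. Kif22, Kif4 and Kif2c, which did not pass, had them too, and Kif18a, which rose, lacked them. Within the mitotic kinesins the letters therefore did not separate genes that rose from those that did not pass. CCAAT was found in 8 of 12 mitotic and 23 of 59 transport genes, and in 41.1% of all genes. Both CHR and CCAAT were in 7 of 12 and 4 of 59, and in 8.61% of all genes. The E-box CACGTG was in 0 of 12 and 2 of 59, and in 8.09% of all genes, and CATGTG in 1 of 12 and 8 of 59, and in 15.9%. CATGTG and CACGTG cannot match at the same bases, and a match is a description of letters only. The 8 stretches below are shown because the CHR letters lie within 80 bases around the start, from 50 before to 30 after it, and are given 5′ to 3′ on the strand of the gene, with those letters in capitals (TTCAAA is TTTGAA read on the other strand).
Kif11 (chr19:37376332-37376411, plus strand): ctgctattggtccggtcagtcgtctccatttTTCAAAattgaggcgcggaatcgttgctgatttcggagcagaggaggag
Kif15 (chr9:122951031-122951110, plus strand): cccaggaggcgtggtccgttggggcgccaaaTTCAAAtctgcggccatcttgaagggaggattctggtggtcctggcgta
Kif18b (chr11:102925095-102925174, minus strand): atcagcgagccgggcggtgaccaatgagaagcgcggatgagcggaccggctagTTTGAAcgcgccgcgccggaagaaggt
Kif20b (chr19:34922308-34922387, plus strand): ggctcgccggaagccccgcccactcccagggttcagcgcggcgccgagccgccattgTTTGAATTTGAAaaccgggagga
Kif22 (chr7:127042391-127042470, minus strand): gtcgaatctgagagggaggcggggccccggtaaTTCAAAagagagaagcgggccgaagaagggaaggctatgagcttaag
Kif23 (chr9:61946770-61946849, minus strand): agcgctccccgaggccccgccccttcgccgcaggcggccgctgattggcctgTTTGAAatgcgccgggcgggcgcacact
Kif4 (chrX:100626015-100626094, plus strand): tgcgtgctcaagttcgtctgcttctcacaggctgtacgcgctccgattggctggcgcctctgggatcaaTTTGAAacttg
Kifc1 (chr17:33890604-33890683, minus strand): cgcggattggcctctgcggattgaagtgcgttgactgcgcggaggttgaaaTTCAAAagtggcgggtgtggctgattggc
Kif22 and Kif4 are shown although they did not pass the test, and the other 6 rose. Kif20b has the letters in tandem.

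Of 13 mitotic kinesins, 12 were tested, 9 rose and 0 fell, 75.0% called beside 60.7% of all tested genes. Kif20b and Kif23, both of cytokinesis, changed most. Kif20b (ENSMUSG00000024795) had 174, 188 and 191 CPM with iBRD9, against 99.1, 74.7 and 73.8 CPM with DMSO. The lowest iBRD9 library was above the highest DMSO library, replicate 1, and the log2 change was 1.16 (SE 0.113, adjusted p = 7.38e-05). Kif23 is the kinesin of centralspindlin, the complex that bundles midzone microtubules. The level of Kif23 (ENSMUSG00000032254) was 90.8, 96.8 and 103 CPM with iBRD9 and 56.3, 48.2 and 44.8 CPM with DMSO. The groups did not overlap, and the log2 change was 0.96 (SE 0.094, adjusted p = 7.49e-05). Kif14, which acts at the midbody, rose too. For Kif14 (ENSMUSG00000041498) the values were 70.3, 76.3 and 73.9 CPM with iBRD9, against 59.5, 50.05 and 47.4 CPM with DMSO. DMSO replicate 1 was the highest of its group, and the log2 change was 0.49 (SE 0.090, adjusted p = 0.00179).

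Kif11, the plus-end motor that pushes spindle poles apart, had the highest level per kilobase of exon among mitotic kinesins, 38.6 CPM with iBRD9 and 32.7 with DMSO. Kif11 (ENSMUSG00000012443) had 264, 299.5 and 299 CPM with iBRD9, against 250, 246 and 235 CPM with DMSO. The groups stood apart by a small margin, and the log2 change was 0.24 (SE 0.066, adjusted p = 0.0128). Without iBRD9 replicate 2 its log2 change was 0.21 (adjusted p = 0.0643), and without iBRD9 replicate 3 also 0.21 (adjusted p = 0.0661). Kif15, which can share the task of Kif11, had 59.1 ± 2.47 CPM with iBRD9 and 44.8 ± 2.81 CPM with DMSO, and the log2 change was 0.40 (SE 0.070, adjusted p = 0.00143). Kif18a, which aligns chromosomes, had 19.9 ± 0.505 CPM with iBRD9 and 14.6 ± 1.152 CPM with DMSO, and the log2 change was 0.45 (SE 0.087, adjusted p = 0.00240). Kif18b, which shortens astral microtubules, had 54.5 ± 4.93 CPM with iBRD9 and 43.7 ± 4.43 CPM with DMSO, and the log2 change was 0.32 (SE 0.096, adjusted p = 0.0199). Its adjusted p was 0.0629 and 0.0889 without iBRD9 replicates 2 and 3, and 0.0528 and 0.0641 without DMSO replicates 2 and 3.

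Kif20a, which carries the chromosomal passenger complex to the midzone, had 106, 121 and 126 CPM with iBRD9 and 103, 90.7 and 82.1 CPM with DMSO. DMSO replicate 1 nearly reached iBRD9 replicate 1, and the log2 change was 0.36 (SE 0.097, adjusted p = 0.0123). Without iBRD9 replicate 2 the adjusted p was 0.0505, and without iBRD9 replicate 3 it was 0.0581. Of its exon bases, 29.3% overlap other genes, mostly Cdc23, which averaged 86.8 CPM with iBRD9 and 78.2 CPM with DMSO. Kifc1, the minus-end motor that focuses spindle poles, shares 97.5% of its transcript with Kifc5b at 96.8% identity, and was read with it. The level of Kifc1 (ENSMUSG00000079553) was 96.9, 108 and 106 CPM with iBRD9 and 83.8, 74.5 and 68.0 CPM with DMSO. Alone, its log2 change was 0.46 (SE 0.086, adjusted p = 0.00205). Summed with Kifc5b it had 129, 139.7 and 141 CPM with iBRD9 and 113, 94.5 and 86.5 CPM with DMSO, a log2 change of 0.48 (SE 0.097, adjusted p = 0.00299).

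Kif22, Kif4 and Kif2c did not pass. Kif22, a chromokinesin, averaged 114 ± 3.73 CPM with iBRD9 and 99.4 ± 13.6 CPM with DMSO, with a log2 change of 0.20 (adjusted p = 0.0949). Without DMSO replicate 1 it was 0.30 (adjusted p = 5.53e-06), and with library size alone 0.30 (adjusted p = 0.0345). Kif4, which works with Prc1 on the central spindle, averaged 81.0 ± 9.47 CPM with iBRD9 and 74.2 ± 3.40 CPM with DMSO, with a log2 change of 0.12 (adjusted p = 0.258). It was 0.21 (adjusted p = 0.0488) without iBRD9 replicate 1 and 0.23 (adjusted p = 0.0466) with library size alone. Kif2c, a depolymerase at kinetochores, averaged 85.7 ± 3.32 CPM with iBRD9 and 79.7 ± 6.53 CPM with DMSO, with a log2 change of 0.10 (adjusted p = 0.252) and of 0.15 (adjusted p = 0.0167) without DMSO replicate 1. Kif2b had 0 counts in all 6 libraries. The count of mitotic kinesins that rose, 9, ran from 6 to 11 when each library was left out in turn, lowest without iBRD9 replicate 2 or 3 and highest without DMSO replicate 1.

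**Figure D3:**
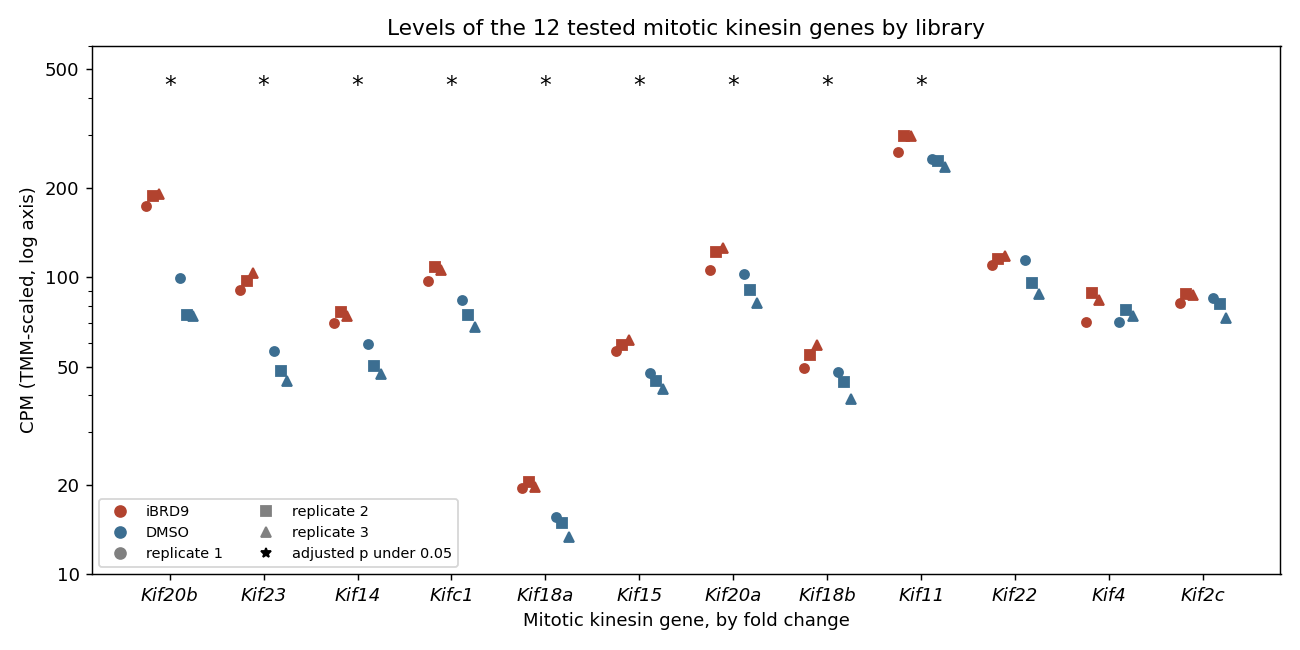
CPM in each library (points, log axis) for the 12 tested mitotic kinesin genes, iBRD9 left of DMSO for each gene; an asterisk marks an adjusted p under 0.05. Kif20b at 174 to 191 CPM with iBRD9 and Kif23 at 90.8 to 103 CPM stand farthest above their DMSO libraries, at 73.8 to 99.1 and 44.8 to 56.3 CPM.

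Partners of these kinesins on the spindle were counted from a list of 22 genes. Of these, 9 rose, 3 fell and 10 did not pass, 54.5% called beside 60.7% of all tested genes, with a median log2 change of 0.10. Cenpe, a mitotic kinesin-7 whose symbol falls outside the rule, averaged 239 ± 10.5 CPM with iBRD9 and 167 ± 17.1 CPM with DMSO, a log2 change of 0.52 (adjusted p = 0.000807). Anln, the scaffold of the cleavage furrow, averaged 316 ± 20.3 CPM with iBRD9 and 206 ± 26.4 CPM with DMSO, a log2 change of 0.62 (adjusted p = 0.000724). Of the chromosomal passenger complex, Incenp and Birc5 rose by 0.56 and 0.53 on the log2 scale (adjusted p = 0.00353 and 0.00462). Its subunit Cdca8 fell by 0.44 (adjusted p = 0.000547). Racgap1, which forms centralspindlin with Kif23, averaged 229.9 ± 16.0 CPM with iBRD9 and 261 ± 9.60 CPM with DMSO and fell by 0.18 (adjusted p = 0.0387), and the spindle kinase Aurka fell by 0.28 (adjusted p = 0.00913). The other 5 that rose were Cdk1, Aurkb, Bub1, Cep55 and Prc1, by 0.51, 0.50, 0.39, 0.32 and 0.20 on the log2 scale (adjusted p = 0.00688, 0.0107, 0.00276, 0.0479 and 0.0299). For Cep55 the groups overlapped, with 66.0 CPM in DMSO replicate 1 and 65.2 CPM in iBRD9 replicate 3.

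The 18 motor genes without a test were near or at 0. Kif2b, Dynlrb2 and the pseudogene Dynlt1-ps1 had 0 counts in every library, where 3 counts are the limit that a count of 0 allows. The other 15 had 2 to 51 counts over all 6 libraries together. They were Myo1f, Myo3a, Myo3b, Myo7b, Myo15, Myo16, Myo18b, Kif5c, Kif6, Kif12, Kif16bos, Kif27, Kif28, Klc3 and Dync1i1. Some of them were called under other settings. Kif27 had 21, 14 and 7 counts with iBRD9 and 3, 0 and 0 counts with DMSO, and passed without DMSO replicate 1 (adjusted p = 3.77e-05), where both DMSO libraries left were at 0. Myo7b had 18, 9 and 14 counts with iBRD9 and 1, 7 and 2 counts with DMSO, and without DMSO replicate 1 its log2 change was 1.46 (adjusted p = 0.0201). In that setting Kif27 and Myo7b had enough counts for a test only through their iBRD9 libraries. The count limit itself thus selected them for a high level with iBRD9. With no filter on low counts, Kif27, Myo15, Myo7b and Kif28 passed as higher (adjusted p = 0.000876, 0.00576, 0.0125 and 0.0458). The neuronal kinesin-1 chain Kif5c (9 counts) and the neuronal dynein intermediate chain Dync1i1 (20 counts) were among them, so Kif5b and Dync1i2 supplied nearly all reads of their subunits.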

How the data were processed

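Poly(A) RNA from 3 iBRD9 and 3 DMSO cultures was sequenced, and the kit is not described as marking strand, per the labels' protocols. The deposited table holds the authors' whole-number read counts per Ensembl gene ID. The submitters' processing notes name the genome build GRCm39, Bowtie2 2.4.5 and CASAVA 1.8.2. For the counting program and annotation, the sources used here give no name. Of the gene IDs, 34490 were matched to a symbol, and the 785 others held 0.0899% of counts. P-values measure the spread between these samples, which may be in part technical.

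Genes were kept by filterByExpr with a minimum count of 10, scaled by TMM and tested with edgeR 4.0.16 (R 4.3.3), using the robust quasi-likelihood F-test with treatment as the only term. P-values were two-sided and adjusted by the Benjamini-Hochberg method. CPM are TMM-scaled, and the SE of a log2 fold change is its size over the square root of F. Exon lengths for levels per kilobase and exon overlaps come from GENCODE M21 (GRCm38). Overlaps were counted on either strand. The procedure was tested on simulated counts.

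The members, role lists and partner lists were chosen with earlier results of these data known. Values per library are given for up to 3 higher and 3 lower called genes of largest change in each role list whose mean log2 CPM reached 1, plus Myo5a, Kif5b, Dync1h1, Dctn1, Kif11 and Kif23. Partner lists follow the same limit. Other genes named from these lists are given by mean or fold change, and the values per library of Dynll2, Kif20a and Kifc1, with Cenpe, Mlph, Kifap3, Cdk1, Aurkb, Bub1, Cep55, Prc1, Dcn, Csf1r, Cd68, Krt10, Kif27, Kif28 and the overlapping neighbours, were chosen after their values were seen. Alternatives were DESeq2 1.42.0 (size factors and Wald test), library size alone, limma-voom (limma 3.58.1), 2 other filters, a replicate block, an adjusted p under 0.01, summed Dynlt1 copies and each library left out. Summing Kifc1 with Kifc5b was chosen after seeing the data, as were the means of Tyr, Tyrp1, Dct, Mlana and Sox10. Figures were drawn with matplotlib 3.10.9. Some genes that the rule takes are left out of this text.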

Additional observations from a re-analysis of the deposited data

How the results depend on the processing

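All counts of motor genes that rose or fell stayed within 1.5 times the value reported under every alternative run: higher 32 to 46 (36 reported) and lower 13 to 21 (16 reported), with 24 to 35 and 13 to 21 for transport motors and 6 to 11 and 0 for mitotic kinesins. With the replicate block they were 36 and 16 for all motor genes, 27 and 16 for transport motors and 9 and 0 for mitotic kinesins, and the block changed no call. Same-numbered samples deviated together with correlations of 0.117, 0.0923 and 0.0311, and iBRD9 replicate 3 correlated best with DMSO replicate 2, so the numbers were not read as pairs. Of the 52 motor genes called, 38 were tested and called in all 16 alternatives. Another 7 (Myo1g, Myo15b, Kifc1 and the 4 Dynlt1 copies) were filtered or summed away in 1 alternative and called in all others. The remaining 7 lost their call in at least 1, namely Dctn2, Dctn5, Kif11, Kif18b, Kif20a, Klc4 and Myo1c, each of them where the adjusted p had to be under 0.01. A row of summed copies is counted here as 1 gene. Over the 16 alternatives 14 sign changes occurred, all in genes that had not passed. With library size alone the log2 changes were 0.085 for Dync2li1, 0.090 for Dynlrb1, 0.059 for Kif21a and 0.056 for Myo19, and with the 1 CPM filter 0.0056 for Dynlrb1. With each library left out in turn, Dync2li1 ran from -0.18 (without DMSO replicate 1) to 0.059 (without DMSO replicate 3) and Dynlrb1 from -0.055 (without iBRD9 replicate 2) to 0.024 (without DMSO replicate 2). Kif5b ran from -0.0018 and Klc2 from -0.040 (both without DMSO replicate 1) to 0.11 and 0.13. Kif19a ran from -0.015 (without DMSO replicate 3) to 0.17, and Myo19 from -0.14 (without DMSO replicate 3) to 0.13 (without DMSO replicate 1). The cause was not tested. Library size alone called Dctn1 (0.22, adjusted p = 0.0151), Dynll1 (0.29, 0.0334), Kif5b (0.18, 0.0250) and Kif13a (0.23, 0.0394), and gave 11 mitotic kinesins higher. Myo5a kept a log2 change of 0.98 to 1.14 and an adjusted p of at most 0.000305. The genes without a test had at most 51 counts over all libraries, and the calls of Kif27, Kif28, Myo15 and Myo7b depend on the filter or on which library is left out.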
